A study of Mus musculus with 6 samples.

Results

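The 10 genes described here encode secreted or surface-bound proteins that help build and maintain synapses: the thrombospondins Thbs1, Thbs2, Thbs3 and Thbs4, the SPARC proteins Sparc and Sparcl1, the glypicans Gpc4 and Gpc6, agrin (Agrn) and the agrin-cleaving protease neurotrypsin (Prss12). They are 10 of 21540 gene records in the authors' deposited table, and each has a single record found by its symbol. The set was chosen from this same comparison, because Thbs4 and Prss12 were lower after cocaine in the table, so every member's change in it is given as a description and supports nothing further. RNA was sequenced from the nucleus accumbens of C57BL/6 mice, a striatal region of the brain's reward system. Cocaine mice (3 libraries) had received 7 daily intraperitoneal doses of 20 mg/kg, control mice (3 libraries) saline, and the labels place the tissue 4 h into withdrawal. The protocol text given for saline is the cocaine one, so the grouping rests on the treatment label. Age, sex and any pooling of animals are not stated in the labels.

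For each record the authors' deposited table holds 1 value per group, treated here as FPKM (fragments per transcript length and sequencing depth), with a log2 fold change of cocaine over saline, a p-value and a q-value. No value per library was available, so no spread between mice stands beside any value, and the kind of variation behind the deposited p-values is not known. Of all records 14959 were marked as tested. A record is called here where its deposited q is under 0.05. The medium spiny neuron markers that define the tissue were abundant in both groups: all 12 passed the 1 FPKM minimum, led by Penk (1531 and 1498 FPKM in saline and cocaine) and Ppp1r1b (829 and 795 FPKM) in the authors' deposited table.

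Several of these proteins are best known as signals that astrocytes release to neurons. Thrombospondins and the SPARC-like protein hevin, the product of Sparcl1, promote the formation of structurally complete excitatory synapses, and SPARC itself counteracts hevin. Gpc4 and Gpc6, heparan sulfate proteoglycans, bring AMPA-type glutamate receptors to young synapses. Agrin is a heparan sulfate proteoglycan that clusters acetylcholine receptors at the neuromuscular junction through Lrp4 and MuSK, and neurotrypsin, a synaptic serine protease, cuts a C-terminal fragment from it.

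For the members called lower in the cocaine group, Thbs4 and Prss12, the 250 bases before the annotated start are shown because cytosine modification, the subject of the series title, acts in vertebrates mostly at CpG dinucleotides. These are RefSeq sequences of build GRCm38.p6, matched by symbol, and not of the authors' build. The Thbs4 window is chr13:92794819-92795068 on the minus strand and the Prss12 window chr3:123446663-123446912 on the plus strand. They are written 5′ to 3′ with each CpG in capitals.
Thbs4: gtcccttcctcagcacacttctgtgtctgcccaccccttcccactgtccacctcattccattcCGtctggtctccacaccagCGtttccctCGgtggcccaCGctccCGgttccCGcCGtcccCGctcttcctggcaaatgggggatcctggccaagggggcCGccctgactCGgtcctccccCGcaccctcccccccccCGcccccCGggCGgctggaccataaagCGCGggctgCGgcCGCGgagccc
Prss12: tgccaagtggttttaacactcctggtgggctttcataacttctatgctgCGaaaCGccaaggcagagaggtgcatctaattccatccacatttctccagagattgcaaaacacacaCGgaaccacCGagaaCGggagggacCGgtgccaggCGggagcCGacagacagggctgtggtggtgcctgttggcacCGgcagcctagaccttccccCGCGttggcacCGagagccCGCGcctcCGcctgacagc

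The Thbs4 window held 19 CpG dinucleotides at a GC content of 70.8%, and the Prss12 window 15 at 59.6%. Over 32851 windows of the same length the median was 6 CpG dinucleotides, with quartiles of 2 and 16, and the median GC content was 52.4%. Windows were found for 7 of the 10 genes. In them Agrn had 35 CpG dinucleotides at one start and 8 at another, Gpc4 had 18, Thbs3 had 6, Sparc had 4 and Thbs2 had 3. The GC box GGGCGG, searched on both strands with overlapping matches counted, occurred 3 times in the Thbs4 window and 0 times in that of Prss12, and 32.7% of all windows held it. No TATA box (TATAAA), AP-1 motif (TGANTCA), CRE (TGACGTCA) or Egr motif (GCGTGGGCG) matched in either window, and 12.4%, 6.75%, 1.55% and 0.536% of all windows held them. Matches are descriptions of letters, and neither DNA methylation nor hydroxymethylation was measured in the data analysed here.

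Among the members Thbs4 and Prss12 fell after cocaine, Sparcl1 rose slightly, 6 tested members were not called and Thbs1 was not tested. Over all tested records 0.709% were called lower and 0.521% higher, printed as background only, since the set was built on this contrast. Of the 9 tested members 7 lay below 0, as did 59.0% of all tested records. The median log2 fold change of the tested members was -0.13, against -0.02 for all tested records. Levels spanned 0.189 to 283.8 FPKM per the authors' deposited table, and the members kept the same order of level in both groups: Sparcl1, Sparc, Agrn, Thbs3, Gpc6, Prss12, Gpc4, Thbs4, Thbs2, Thbs1. Without values per library, neighbours in that order cannot be compared against their spread.

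**Figure D1:**
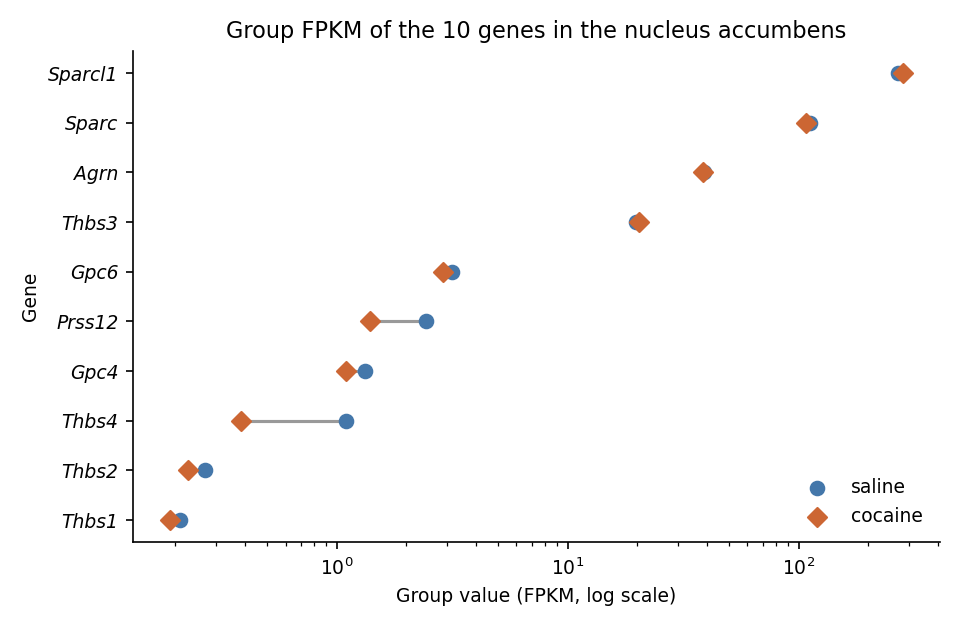
Group value in FPKM (x axis, log scale) of each of the 10 genes (y axis, ordered by the saline value), with saline as blue circles, cocaine as orange diamonds and a grey line joining the pair. Only Prss12 (2.43 and 1.39 FPKM) and Thbs4 (1.10 and 0.386 FPKM) show a clear gap. There are no error bars because the table has 1 value per group.

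Thbs4, a secreted pentameric thrombospondin that in the adult brain is made by astrocyte-lineage cells of the subventricular zone among others, stood at 1.10 FPKM in saline and 0.386 FPKM in cocaine in the authors' deposited table (ENSMUSG00000021702). This was a 2.85-fold lower value, a log2 fold change of -1.51, with a deposited q of 2.46e-07. In a bulk sample, fewer cells that make a transcript and less of it per cell cannot be told apart. Thbs4 was the only called record among 2088 tested records with a mean under 1 FPKM. Of the tested records in the authors' deposited table, 27 had a more negative log2 fold change than Thbs4, of which 14 reached 1 FPKM in a group, and 0 of the 27 were called. With 1 FPKM added to both values its log2 fold change was -0.60, so the size of the fold rests on a cocaine value near the bottom of the scale.

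The other thrombospondins did not show such a gap. Thbs3, a pentameric form like Thbs4, was the main thrombospondin transcript at 19.8 FPKM in saline and 20.3 FPKM in cocaine in the authors' deposited table (log2 fold change 0.03, p = 0.861). It made up 92.6% of the summed thrombospondin FPKM in saline. Thbs1 and Thbs2, trimeric thrombospondins and the forms first shown to drive synapse formation in culture, were near the bottom of the scale. Thbs2 was at 0.270 and 0.226 FPKM in saline and cocaine per the authors' deposited table (p = 0.584). Thbs1 was at 0.208 and 0.189 FPKM there and was marked as not tested.

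The fall of Thbs4 was small against the family's total. Its share of summed thrombospondin FPKM was 5.14% in saline and 1.83% in cocaine, and the sum itself was 21.4 and 21.1 FPKM. The ratio of Thbs3 to Thbs4 was 18.0 in saline and 52.6 in cocaine. Exons of Thbs3 share 318 bases, 6.59% of its exonic bases in GENCODE M21, with Mtx1 on the opposite strand. Mtx1, named here after its values were seen, stood at 49.6 and 48.3 FPKM per the authors' deposited table. The strand setting of the counting is not given, so reads in that overlap could belong to either gene.

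Prss12, the neurotrypsin gene, stood at 2.43 FPKM in saline and 1.39 FPKM in cocaine in the authors' deposited table (ENSMUSG00000027978). It fell by 42.6%, a log2 fold change of -0.80 with a deposited q of 7.99e-05. It was 1 of 3 called records among 2085 with a mean of 1 to 3 FPKM, of which 2 fell and 1 rose. Of the tested records in the authors' deposited table, 117 had a more negative log2 fold change than Prss12, 43 of them with at least 1 FPKM in a group, and 1 of the 117 was called, which was Thbs4. With 1 FPKM added the log2 fold change was -0.52. An antisense gene, Gm35065, overlaps 157 exonic bases of Prss12 (6.03%) in GENCODE M21.

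Agrn, the substrate of neurotrypsin, was far more abundant and nearly equal between groups. It stood at 39.1 FPKM in saline and 38.6 FPKM in cocaine in the authors' deposited table (log2 fold change -0.02, p = 0.710). The ratio of Agrn to Prss12 was therefore 16.1 in saline and 27.6 in cocaine. These are transcript levels, and cleavage of agrin was not measured.

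The SPARC proteins were the most abundant members. Sparcl1, which encodes hevin, stood at 269 FPKM in saline and 284 FPKM in cocaine in the authors' deposited table (ENSMUSG00000029309), a rise of 5.45% with a log2 fold change of 0.08 and a deposited q of 5.39e-09. Sparc, which encodes the counteracting protein, stood at 113 and 108 FPKM per the authors' deposited table (log2 fold change -0.06, p = 0.261). The ratio of Sparcl1 to Sparc was 2.39 in saline and 2.63 in cocaine. Whether the changes of these neighbours in level differ from each other was not tested.

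Smaller changes were called at higher levels in this table. Among 736 tested records with a mean of at least 100 FPKM, 8.70% were called, 37 lower and 27 higher, with a median absolute log2 fold change of 0.11 over those called. Among records under 1 FPKM 0.0479% were called, and among those of 1 to 3 FPKM 0.144%. Sparcl1 is therefore a small change called at a high level, and Thbs4 and Prss12 are large changes called at low levels. Over all levels 49 called records changed by under 0.1 on the log2 scale, and only 3 exceeded 0.8: Ttr, Thbs4 and Prss12.

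**Figure D2:**
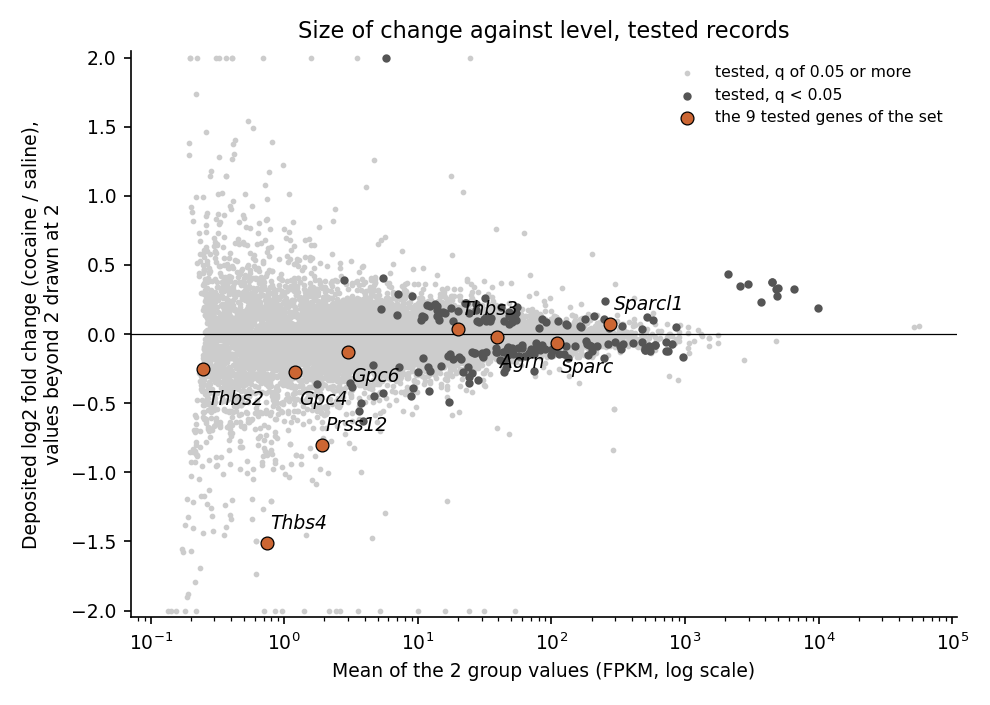
Deposited log2 fold change (y axis, values beyond 2 drawn at 2, as for 32 records) against the mean of the group values in FPKM (x axis, log scale) for tested records. Grey points were not called, dark points were called at q < 0.05, and orange points are the 9 tested genes of the set. Thbs4 (-1.51) and Prss12 (-0.80) lie at low level, below the other tested genes of the set, and uncalled records fell more than either. Sparcl1 (0.08) lies at the upper end of the level range.

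Gpc6 and Gpc4, the glypicans that astrocytes secrete to recruit AMPA receptors, had low values. Gpc6 stood at 3.14 FPKM in saline and 2.88 FPKM in cocaine in the authors' deposited table (log2 fold change -0.13, p = 0.287). Gpc4 stood at 1.32 and 1.10 FPKM per the authors' deposited table (log2 fold change -0.27, p = 0.158). Both values were lower in cocaine and neither was called. The ratio of Gpc6 to Gpc4 was 2.37 in saline and 2.62 in cocaine.

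**Figure D3:**
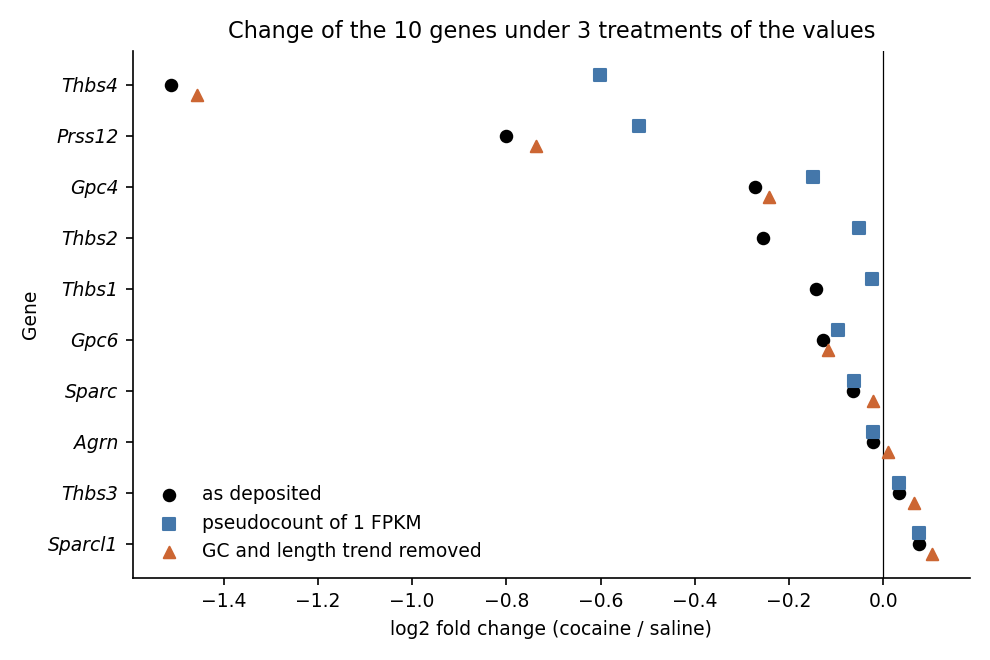
log2 fold change of cocaine over saline (x axis) for each of the 10 genes (y axis), as deposited (black circles), with 1 FPKM added to both group values (blue squares) and with the trend over GC content and transcript length removed (orange triangles, absent for Thbs1 and Thbs2, which are under 1 FPKM). Thbs4 moves from -1.51 to -0.60 and Prss12 from -0.80 to -0.52 with the pseudocount, while Sparcl1 stays between 0.08 and 0.10.

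Genes with the nearest log2 fold change were looked up among tested genes of at least 1 FPKM with 1 record per symbol, a likeness over 2 group values only. Symbols of predicted genes, unnamed clones and mitochondrial genes were left out first, so records without a proper name may lie nearer. For Thbs4 the nearest named genes were Rassf7 (-1.46, p = 0.128), Cbx8 (-1.21, p = 0.485) and Cks1b (-1.08, p = 0.0724) in the authors' deposited table. For Prss12 they were Nhej1 (-0.79, p = 0.301), Ccl17 (-0.78, p = 0.238) and Noxo1 (-0.78, p = 0.577) in the authors' deposited table. None of these 6 was called, so falls of this size were deposited with very different p-values.

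Partner genes were read from 5 lists with 79 genes of at least 1 FPKM, of which 2 were called higher and 1 lower. Over all 12827 such genes, with 1 record per symbol, 1.43% were called and 6.52% had an unadjusted p under 0.05. All 3 calls were in the list of 19 receptors and surface partners, whose other 16 genes were not called and whose median log2 fold change was 0.0031, against -0.02 for all tested records of at least 1 FPKM. At an unadjusted p under 0.05 that list held 4 higher genes and 1 lower, the called ones included. Gpr158, an orphan G-protein-coupled receptor that binds Gpc4 at mossy fibre synapses, rose from 31.2 to 34.0 FPKM per the authors' deposited table (log2 fold change 0.12, q = 1.03e-05). Ptprs, a receptor tyrosine phosphatase that binds heparan sulfate chains of glypicans, fell from 105 to 97.6 FPKM per the authors' deposited table (-0.11, q = 0.0335). With the GC and length trend removed the log2 fold changes of Gpr158 and Ptprs were 0.09 and -0.07.

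Of the thrombospondin receptors in that list none was called, and Cd36, at 0.113 and 0.0908 FPKM per the authors' deposited table, was marked as not tested. Cacna2d1, the calcium channel subunit through which thrombospondins promote synapses, was at 17.6 and 18.4 FPKM in saline and cocaine per the authors' deposited table and was marked as failed, so it has no test. Cd47 was at 46.7 and 45.8 FPKM per the authors' deposited table (p = 0.726). Lrp1 was at 140 and 128 FPKM per the authors' deposited table (p = 0.543). For hevin, the synaptic adhesion partner Nlgn1 (14.1 and 16.2 FPKM, p = 0.00923, q = 0.440) was not called in the authors' deposited table. For agrin, Lrp4 was at 7.61 and 7.34 FPKM and Musk at 1.79 and 1.84 FPKM per the authors' deposited table, and neither was called.

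Among family relatives 0 of 8 genes were called by the deposited q, with 1 higher and 1 lower at a deposited p under 0.05 and a median of 0.01. The testican genes led by level: Spock2 was at 218 and 206 FPKM, Spock3 at 99.3 and 106 FPKM and Spock1 at 58.0 and 58.7 FPKM in saline and cocaine per the authors' deposited table. Gpc1 (27.1 and 27.2 FPKM) and Gpc5 (12.7 and 13.2 FPKM) were more abundant than the member glypicans Gpc4 and Gpc6 in the authors' deposited table. Comp, the fifth thrombospondin, was at 0.0747 and 0.0363 FPKM there and was marked as not tested.

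Other secreted synapse organisers gave 0 calls among 19 genes by the deposited q, with 1 higher and 2 lower at a deposited p under 0.05 and a median of -0.01. C1ql3, a C1q-like synaptic ligand, came nearest at 3.17 and 2.32 FPKM per the authors' deposited table (log2 fold change -0.45, q = 0.0589), and it was singled out after its values were seen. The 3 most abundant were Olfm1 (91.6 and 92.9 FPKM), Wnt7a (35.5 and 27.5 FPKM, p = 0.244) and Lgi1 (26.8 and 27.3 FPKM) in the authors' deposited table.

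Extracellular proteases and their inhibitors gave 0 calls among 14 genes by the deposited q, with 0 higher and 2 lower at a deposited p under 0.05 and a median of -0.03. Cst3, a cysteine protease inhibitor, was at 1552 and 1458 FPKM per the authors' deposited table (q = 0.222). Timp2, a metalloprotease inhibitor, was at 108 and 99.5 FPKM there (q = 0.331). Serpine2, an inhibitor of serine proteases, was at 87.9 and 86.7 FPKM per the authors' deposited table (p = 0.458). Prss12 is a serine protease but was no member of that list.

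Enzymes that build or edit heparan sulfate, together with syndecans, gave 0 calls among 19 genes by the deposited q, with 1 higher and 0 lower at a deposited p under 0.05 and a median of -0.02. Sdc3 was at 40.3 and 42.1 FPKM, Hs6st2 at 37.0 and 33.6 FPKM and Sdc2 at 32.8 and 28.8 FPKM per the authors' deposited table. None of these was called.

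Markers of several cell types moved in the same comparison, and their part in the results above was not tested. As background for these lists, 59.2% of all tested records of at least 1 FPKM lay below 0, with a median of -0.02. With 1 record per symbol, 1.43% of such genes were called and 6.52% had an unadjusted p under 0.05. Astrocyte markers, which mark the main source of several members, gave 0 calls among 14 by the deposited q, 3 higher and 2 lower at a deposited p under 0.05, and a median of 0.01. Their summed level was 2325 FPKM in saline and 2403 FPKM in cocaine, and Aldoc, Glul and Slc1a2 led them at 796 and 787, 620 and 629, and 377 and 453 FPKM per the authors' deposited table. Slc1a2, a glutamate transporter, had p = 0.0345 and q = 0.968 in the authors' deposited table.

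Markers of neuroblasts and their progenitors gave 3 falls among 9 counted genes, with a median of -0.39 and 8 of the 9 below 0. At an unadjusted p under 0.05, 6 of the 9 were lower and 0 higher, the called genes included. Over all genes of at least 1 FPKM that share was 6.52%. Of all tested records of at least 1 FPKM, 59.2% lay below 0. All 11 listed genes, including Mki67 and Sp8 below 1 FPKM, summed to 210 FPKM in saline and 193 FPKM in cocaine, of which the neuronal tubulin Tubb3 made up 153 and 148 FPKM per the authors' deposited table. Cd24a went from 4.31 to 2.93 FPKM, Sox11 from 6.24 to 4.64 FPKM and Ccnd2 from 10.4 to 7.96 FPKM per the authors' deposited table. Dcx, a defining neuroblast gene, was at 4.51 and 4.60 FPKM per the authors' deposited table (p = 0.787). Earlier results of these data had shown those 3 falls.

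Endothelial markers gave 1 fall among 12, Cldn5 (10.2 to 7.46 FPKM, q = 0.00123 in the authors' deposited table). All 12 lay below 0, against 59.2% of all tested records of at least 1 FPKM. At an unadjusted p under 0.05, 2 were lower, Cldn5 included, and 0 higher. The list median was -0.32, with a summed level of 106 and 90.5 FPKM. Mural cell markers gave 0 calls among 8 by the deposited q and 1 lower at an unadjusted p under 0.05, with all 8 below 0, a median of -0.14 and a sum over all 9 listed genes of 30.4 and 26.9 FPKM. Rgs5, Acta2 and Pdgfrb were at 9.89 and 9.16, 5.13 and 4.66, and 4.41 and 3.95 FPKM per the authors' deposited table. Meningeal fibroblast markers gave 0 calls among 5 and 1 lower at an unadjusted p under 0.05, with 4 below 0, a median of -0.34 and a sum over all 10 listed genes of 15.8 and 12.7 FPKM.

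Cortical glutamatergic markers gave 1 fall among 6, the vesicular glutamate transporter Slc17a7 (49.9 to 44.9 FPKM, q = 3.70e-05 in the authors' deposited table), with 4 below 0 and 2 above (Slc17a6 at 0.28 and Cux2 at 0.12), a median of -0.19 and a sum over all 9 listed genes of 71.5 and 65.6 FPKM. At an unadjusted p under 0.05 this list held 2 lower genes, Slc17a7 included, and 0 higher. The log2 fold change of Slc17a7 was -0.15 as deposited, and -0.08 once the trend with GC content and length was taken out. Choroid plexus markers gave 1 rise among 3, Ttr (0.668 to 10.8 FPKM with a q listed as 0 in the authors' deposited table), with a median log2 fold change of -0.04. The other two counted genes were below 0, Kl at 1.46 and 1.42 FPKM and Clic6 at 6.42 and 5.65 FPKM per the authors' deposited table, and neither was called. All 10 listed genes, 7 of them below 1 FPKM in both groups, summed to 9.80 and 20.3 FPKM, and Ttr held most of that difference. Microglia, oligodendrocyte and medium spiny neuron markers gave 0 calls among 10, 8 and 12 by the deposited q. At an unadjusted p under 0.05 these lists held 0, 1 higher and 3 lower genes, and their medians were 0.03, -0.02 and -0.03. No marker in any list was at 0 in both groups.

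**Figure D4:**
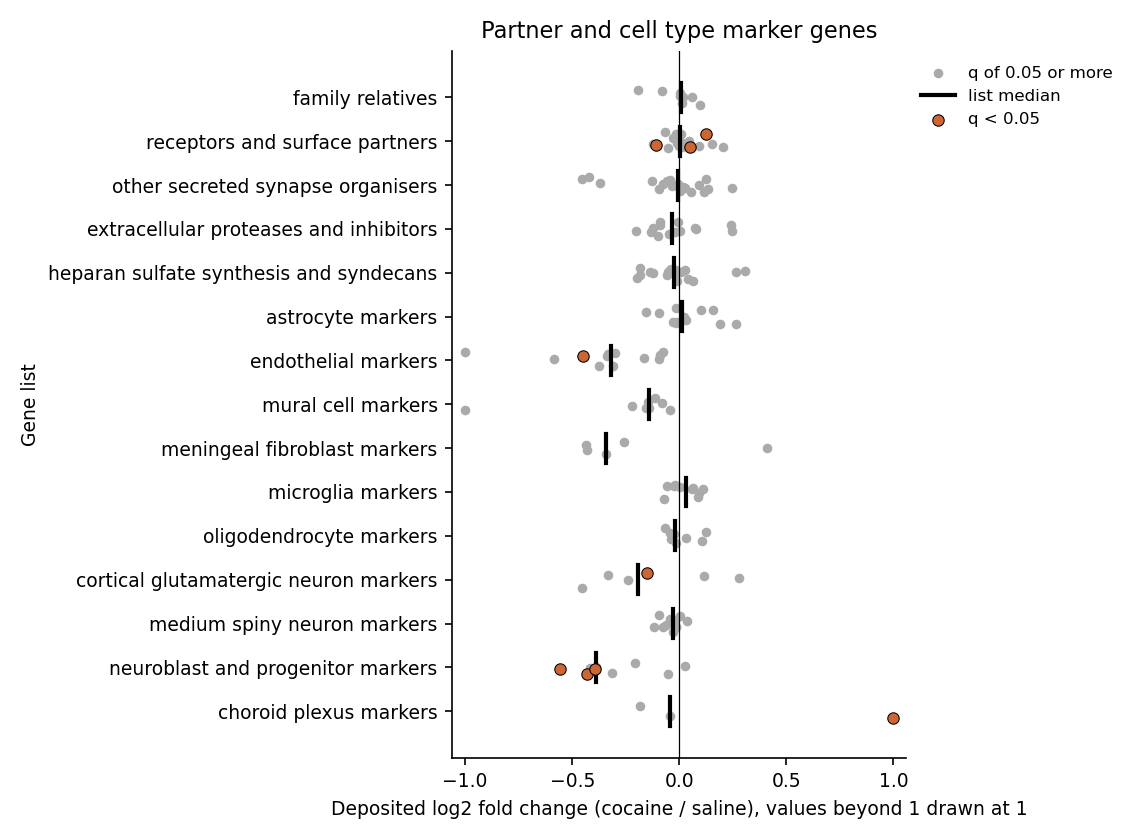
Deposited log2 fold change (x axis, values beyond 1 drawn at 1) of genes of at least 1 FPKM in 5 partner lists and 10 cell type marker lists (y axis). Grey points were not called, orange points were called at q < 0.05, and black bars are list medians. Partner list medians lie between -0.03 and 0.01, while those of the neuroblast (-0.39), meningeal fibroblast (-0.34) and endothelial (-0.32) marker lists lie lowest.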

How the data were processed

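Nucleus accumbens RNA-seq of 3 cocaine and 3 saline libraries was available as a single table. The reads were processed with TopHat2 2.0.6 and Cufflinks 2.0.2 on build NCBIM37, per the submitters' processing notes, with settings, annotation and strand not given there. FPKM per group were made by the authors and deposited without values per library, and the unit is inferred from the layout, that of a Cuffdiff gene table. Each record's p-value and q-value were deposited by the authors and copied. The deposited log2 fold change lay within 1.28e-05 of that recomputed from the group values. The deposited q is not the Benjamini-Hochberg adjustment over these records alone, which calls 199 records and not 184.

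Read depth is unknown, so no counting interval or floor was computed. The planned per-library fits (leaving out replicates, replicate block) could not be made. A gene was called at q < 0.05. List genes needed 1 FPKM in the higher group, and the record with the highest mean was used per symbol. GC content and length were taken from each gene's longest GENCODE M21 transcript, found for 97.3% of the records of at least 1 FPKM. The median of each of 10 GC by 10 length cells was subtracted. Both functions were tested on simulated data. Promoter windows are from RefSeq (GRCm38.p6).

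Members and all 15 lists were chosen with earlier results of these data known. Named genes are all members, called list genes or otherwise the 3 most abundant of a list, and the 3 properly named genes with the nearest log2 fold changes to Thbs4 and Prss12. Some partner genes are named beyond that rule, chosen after their values were seen, and some genes counted in the lists are not reported here by name. Python 3.11.15, pandas 2.3.3 and matplotlib 3.10.9 were used.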

Additional observations from a re-analysis of the deposited data

How the results depend on the processing

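No paired analysis was possible because the table holds 1 value per group, and leaving out a replicate was not possible for the same reason. The number of called members was 3 as reported and under q < 0.01, both recomputed Benjamini-Hochberg adjustments, an unadjusted p under 0.05 and a 1 FPKM minimum, and 1 (Sparcl1) with a 5 FPKM minimum, which removes Thbs4 and Prss12. The members were chosen on this contrast, so the unchanged count is a description only. The unadjusted p is a looser threshold that could not remove a call. Thbs4 met the 1 FPKM minimum through its saline value alone (1.10 FPKM, against 0.386 FPKM in cocaine). The median log2 fold change of the tested members was -0.13 as reported, -0.062 with a pseudocount of 1 and 0.0064 among members of at least 5 FPKM, where only Sparcl1, Sparc, Agrn and Thbs3 are left. With a pseudocount of 1 the log2 fold change moved by over 1.5 times for 5 of 10 members, and with 0.1 for 1. Rescaling to equal sums, a shift of -0.0214, and centring each moved 2 members, and rescaling without mitochondrial genes moved 0. Removing the GC and length trend turned Agrn from -0.022 to 0.0103 and moved 2 of the other members with a value by over 1.5 times, Thbs3 from 0.035 to 0.065 and Sparc from -0.063 to -0.021, and the cause was not tested. Sparcl1 kept its direction under these settings (0.06 to 0.10), as did Thbs4 (-1.53 to -0.60) and Prss12 (-0.82 to -0.52). The calls in the partner and marker lists numbered 9 as reported and 7 to 9 under the alternatives. An alternative added after seeing the data put the 9 called list genes through the same settings, and 0 changed direction.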
